A study of Homo sapiens with 6 samples.

Results

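The claudin family genes were examined in cells of the human liver cancer line HepG2 after knockdown of the long noncoding RNA LINC01977. A list of 10 genes was chosen by gene name (CLDN1, CLDN2, CLDN3, CLDN4, CLDN6, CLDN7, CLDN9, CLDN12, CLDN14 and CLDN15) from the 29153 genes of the deposited table, which holds 19 claudins in all. RNA sequencing was carried out 72 h after infection of HepG2 cells with lentivirus carrying a control hairpin (sh-NC, 3 libraries) or a hairpin against LINC01977 (sh-LINC01977, 3 libraries). All 6 libraries thus came from cells infected with a hairpin lentivirus, which the study's methods describe as selected with puromycin. The labels number the hairpin of the knockdown libraries 3, while the study lists a single hairpin against LINC01977, and it was not stated whether the replicates came from separate cultures, so the tests measure the spread between these libraries. The purpose of the sequencing was to find which genes and pathways lie downstream of LINC01977. The list was selected on the counts and fold changes of this same comparison, and CLDN4 in particular was noted for its variable counts. The fold changes of the listed claudins, and which of them lie past the threshold set for all genes, are therefore given as a description and with no p-value of their own.

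Claudins are small membrane proteins that cross the membrane several times and polymerize into the strands of the tight junction, where their extracellular loops bind claudins of the neighbouring cell. Some members seal the space between cells and others form pores for ions or water, so that the mixture of claudins sets how leaky an epithelium is. In the liver, tight junctions between hepatocytes separate the bile canaliculus from the blood side, and most claudins are anchored to scaffold proteins of the junctional plaque through the end of their cytoplasmic tail.

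Total counts were between 49929024 and 60441515 per library. LINC01977 itself was counted 4, 0 and 16 times (sh-NC) and 0, 0 and 4 times (sh-LINC01977), so its reduction could not be assessed at this depth. The study reports that its knockdown in MHCC97H and HepG2 lines was checked by qRT-PCR, a measure outside these libraries. The defining genes of hepatocytes and HepG2 were abundant, with 8 of 8 listed genes in the table and a summed level of 4375 to 4742 FPKM (fragments scaled to gene length and library total) in sh-NC libraries and 3097 to 3159 FPKM in sh-LINC01977 libraries. Of these 8 genes, 6 were lower in sh-LINC01977 cells at an adjusted p under 0.05 and none was higher. Among all 13452 tested genes, 8.07% were lower and 7.05% higher. ALB had a log2 fold change of -1.09 and APOA1 of -0.74, while APOB (0.0074) and TTR (-0.17) did not pass. A list of 5 genes of bile duct and other gland epithelium summed to between 609 and 651 FPKM in sh-NC and between 561 and 578 FPKM in sh-LINC01977 libraries, a sum in which KRT19 rose (log2 fold change 0.57) while SPP1 (-0.59) and SOX9 (-0.24) fell, and the SOX9 call was lost whichever library was left out. The 5 mesenchymal genes summed to 3.04 to 4.21 FPKM in sh-NC and 5.48 to 7.67 FPKM in sh-LINC01977 libraries. COL1A1, the highest of them, had means of 2.72 and 4.72 FPKM and did not pass (log2 fold change 0.73, adjusted p = 0.0504 from edgeR). PDGFRB rose from 0.567 to 1.64 FPKM (log2 fold change 1.47), while COL3A1, THY1 and VIM stayed at a group mean of at most 0.181 FPKM. The 3 of 4 blood cell genes in the table summed to 9.28 to 12.6 and 13.5 to 15.7 FPKM, nearly all of it CD68, with PTPRC at a mean of 0.0011 FPKM, and the 4 endothelial genes to at most 0.564 FPKM in any library. The part of these shifts in the claudin values was not tested. In bulk RNA, fewer cells with a transcript and less of it per cell cannot be told apart.

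Of the 10 claudins, 6 passed the filter of a mean level of at least 0.5 FPKM over the 6 libraries, namely CLDN1, CLDN2, CLDN4, CLDN6, CLDN12 and CLDN15. CLDN2 passed with a mean of 0.551 FPKM and CLDN9, the next below, had 0.266 FPKM. The filter left 13452 genes in all, which were tested together with edgeR's quasi-likelihood test on the counts. CLDN1, CLDN4 and CLDN6 were among the genes lower in sh-LINC01977 cells at an adjusted p under 0.05, and no listed claudin was among those higher, while 15.1% of all tested genes passed in either direction and 8.07% with lower and 7.05% with higher levels in sh-LINC01977 cells. Since the list was drawn up with this comparison known, that count is no test of the claudins and nothing is read from it. The 6 log2 fold changes had a median of -0.41, and the median over all tested genes was -0.0010. This median rests on the same choice of genes, so nothing is read from it either.

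CLDN4 encodes claudin 4, a sealing claudin of many glandular epithelia and a receptor for the enterotoxin of Clostridium perfringens (ENSG00000189143, chromosome 7, 73799542 to 73832693 on the plus strand, GRCh38). The 3 sh-NC libraries held 7786, 5520 and 7221 CLDN4 counts, and the 3 sh-LINC01977 libraries held 419, 44 and 58. All 3 knockdown libraries thus lay far below all 3 control libraries, but the first knockdown library kept several times more CLDN4 than the other two. In CPM (counts scaled to a fixed library size, here the total over the tested genes times the TMM factor of the library), the level was 126 ± 15.8 CPM in sh-NC and 3.15 ± 3.87 CPM in sh-LINC01977 cells (SD, n = 3 each). The fitted log2 fold change was -5.32, with a fitted error (SE) of 0.86, or 40.0-fold lower. With 1 library left out in turn it ranged from -7.10, without the first sh-LINC01977 library, to -4.84, without the second.
CLDN4 was listed with this spread between knockdown replicates known, so its size is given as a description. Its highest CPM was 10.5 times its lowest in sh-LINC01977 libraries, compared with 1.28 times in sh-NC libraries, and the coefficient of variation was 123% and 12.5%.

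CLDN1 encodes claudin 1, a barrier-forming claudin of hepatocytes and skin that also serves as a coreceptor for hepatitis C virus (ENSG00000163347, chromosome 3, 190305701 to 190322475 on the minus strand). CLDN1 was counted 5835, 5224 and 5590 times (sh-NC) and 3746, 4329 and 3312 times (sh-LINC01977). The groups did not overlap, and the replicates of each group lay close together. Its level was 103 ± 6.69 CPM in sh-NC and 67.8 ± 3.41 CPM in sh-LINC01977 cells (SD, n = 3 each), and its log2 fold change was -0.60, with a fitted error (SE) of 0.069, or 1.51-fold lower. The decrease was thus much smaller than that of CLDN4 but rested on steadier counts.
CLDN6 encodes claudin 6, which is found mainly in embryonic epithelia and some tumours and is usually low in adult tissue (ENSG00000184697, chromosome 16, 3014712 to 3020071 on the minus strand). CLDN6 was counted 1011, 829 and 909 times (sh-NC) and 466, 429 and 318 times (sh-LINC01977), so that every knockdown library lay below every control library. The level went from 16.9 ± 1.57 to 7.23 ± 1.16 CPM (SD, n = 3 each), with a log2 fold change of -1.23 and a standard error of 0.14, or 2.34-fold lower. The interval of CLDN6 overlaps that of TNFRSF12A on the opposite strand, and it was not stated whether the counting used strand. TNFRSF12A itself had 62.1 ± 2.67 CPM in sh-NC and 60.6 ± 5.74 CPM in sh-LINC01977 cells (SD, n = 3 each), with overlapping groups.

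CLDN12 encodes claudin 12, which lacks the usual tail that binds plaque scaffolds (ENSG00000157224, chromosome 7, 90383721 to 90513402 on the plus strand). CLDN12 was counted 3405, 1354 and 3919 times (sh-NC) and 3136, 1735 and 3143 times (sh-LINC01977). The groups overlapped, and in each group the second library held the low value while the other two were alike. The level was 52.2 ± 21.5 CPM in sh-NC and 48.8 ± 17.7 CPM in sh-LINC01977 cells (SD, n = 3 each), and the log2 fold change was -0.10, with a fitted error (SE) of 0.40. The coefficient of variation of CLDN12 was 41.2% in sh-NC and 36.3% in sh-LINC01977 libraries. Its interval overlaps CDK14 and GTPBP10 on the same strand, and 10 transcripts were listed for it. It became -0.40 on leaving out the second control library and 0.18 on leaving out the second knockdown library, so its direction depended on single libraries.
CLDN15 encodes claudin 15, a pore-forming claudin of the intestine (ENSG00000106404, chromosome 7, 101232092 to 101238820 on the minus strand). CLDN15 was counted 596, 541 and 689 times (sh-NC) and 512, 576 and 508 times (sh-LINC01977). These counts overlapped, but after scaling the groups were apart, at 11.2 ± 0.434 CPM in sh-NC and 9.54 ± 0.290 CPM in sh-LINC01977 cells (SD, n = 3 each). The log2 fold change was -0.23, with a fitted error (SE) of 0.091, which did not pass the test.
CLDN2 encodes claudin 2, which forms pores for cations and water (ENSG00000165376, X chromosome, 106900164 to 106930861 on the plus strand, where it overlaps MORC4 and RIPPLY1 on the opposite strand). CLDN2 was counted 117, 100 and 111 times (sh-NC) and 166, 137 and 133 times (sh-LINC01977). Each knockdown library was above each control library, with 2.02 ± 0.131 CPM in sh-NC and 2.62 ± 0.384 CPM in sh-LINC01977 cells (SD, n = 3 each). Its log2 fold change was 0.37, with a fitted error (SE) of 0.18, which did not pass the test. CLDN2 passed the filter only through the knockdown group, since its sh-NC mean was 0.469 FPKM and its sh-LINC01977 mean 0.633 FPKM. As a description from which nothing is read, 4 of the 6 claudins were lower in CPM without overlap and CLDN2 was higher without overlap, while the groups did not overlap for 37.1% of all tested genes (18.3% lower and 18.8% higher).

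**Figure D1:**
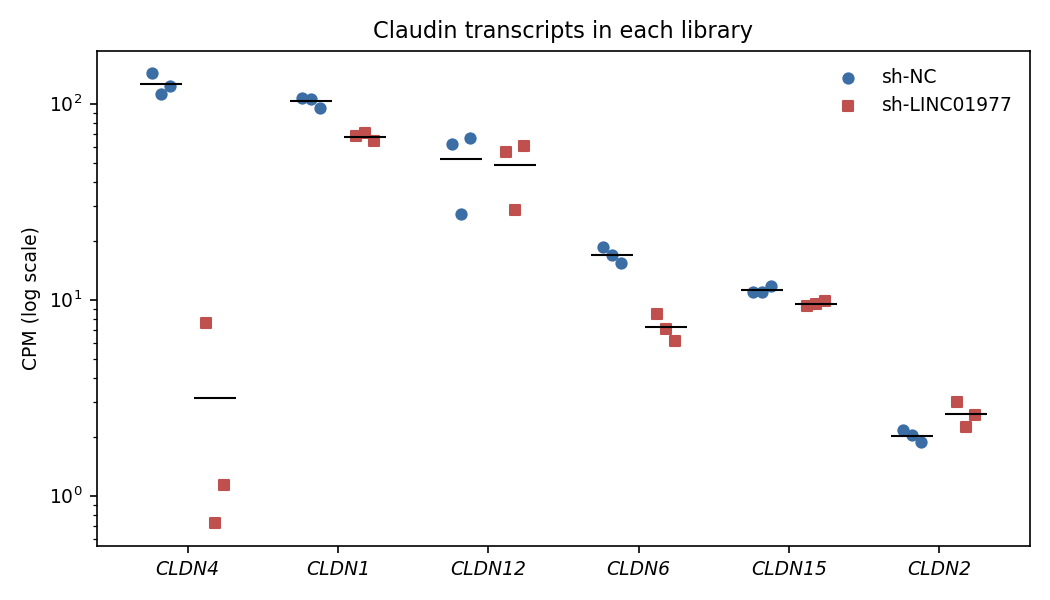
CPM on a log axis for the 6 claudins that passed the filter, with circles for the 3 sh-NC libraries, squares for the 3 sh-LINC01977 libraries and bars for group means. CLDN4 drops from 126 to 3.15 CPM with a wide spread after knockdown, CLDN1 and CLDN6 drop less with narrower spreads than CLDN4, and CLDN12 has a low second library in both groups.

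The other 4 listed claudins were close to undetected. CLDN3, which encodes another sealing claudin and enterotoxin receptor (ENSG00000165215, chromosome 7, 73768997 to 73770270 on the minus strand), was counted 2, 0 and 0 times (sh-NC) and 4, 19 and 8 times (sh-LINC01977). The knockdown libraries were higher in each case, but the control counts were at or below a floor of 3, so no fold change is given. CLDN7, whose protein binds the adhesion molecule EpCAM (ENSG00000181885, chromosome 17, 7259903 to 7263983 on the minus strand), had 8, 0 and 2 counts in sh-NC and 2, 0 and 4 in sh-LINC01977 libraries. CLDN9, a claudin best known from the inner ear (ENSG00000213937, chromosome 16, 3012456 to 3014505 on the plus strand), had 38, 16 and 59 counts in sh-NC and 65, 36 and 16 in sh-LINC01977 libraries. CLDN14, a claudin of kidney and inner ear (ENSG00000159261, chromosome 21, 36460621 to 36576569 on the minus strand), had 12, 19 and 15 counts in sh-NC and 15, 0 and 12 in sh-LINC01977 libraries. The groups overlapped for CLDN7, CLDN9 and CLDN14, and a difference was not detectable at these counts. CLDN7 and CLDN14 also overlap other listed genes, CLDN7 with ELP5 and AC003688.1 and CLDN14 with noncoding genes.

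Levels of the 10 listed claudins were then compared with each other in FPKM, which is scaled to length. In sh-NC cells CLDN1 (22.2 ± 1.31 FPKM) and CLDN4 (21.2 ± 2.45 FPKM) were the most abundant, and their ranges overlapped (SD, n = 3 for these and the following levels). CLDN6 (7.72 ± 0.636 FPKM) and CLDN12 (6.13 ± 2.53 FPKM) came next with overlapping ranges, followed by CLDN15 at 3.06 ± 0.136 FPKM and CLDN2 at 0.469 ± 0.026 FPKM. The remaining 4 were at or below a mean of 0.256 FPKM. In sh-LINC01977 cells CLDN1 stayed first at 15.4 ± 0.549 FPKM, ahead of CLDN12 at 6.03 ± 2.25 FPKM. CLDN6 had 3.44 ± 0.535 FPKM, and only its highest library reached into the range of CLDN12, while CLDN15 had 2.72 ± 0.113 FPKM. CLDN4, with 0.554 ± 0.680 FPKM, went from the second to the sixth place among the 10 listed claudins. Its range there overlapped those of CLDN2 above (0.633 ± 0.098 FPKM) and CLDN9 below (0.276 ± 0.179 FPKM).
The summed level of the 10 claudins was 66.3, 56.7 and 60.7 FPKM in sh-NC libraries and 31.8, 26.4 and 29.4 FPKM in sh-LINC01977 libraries. Every knockdown library was thus below every control library. Without CLDN4 the sum was 40.0 ± 2.35 FPKM in sh-NC and 28.6 ± 2.12 FPKM in sh-LINC01977 cells (SD, n = 3 each). CLDN4 made up 34.6% ± 1.27 of the summed FPKM of the 10 listed claudins in control cells and 1.79% ± 2.10 after knockdown (SD, n = 3 each). The share of CLDN1 was 36.5% ± 3.64 in sh-NC and 53.0% ± 6.26 in sh-LINC01977 cells, and that of CLDN12 was 9.89% ± 3.76 and 20.4% ± 6.58. As shares of a sum that was lower, these do not show higher levels. In FPKM, CLDN1 went from 22.2 to 15.4 and CLDN12 from 6.13 to 6.03. CLDN6, which was lower along with the sum, kept a similar share of 12.6% ± 0.947 and 11.8% ± 1.42 (SD, n = 3 for each share).

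**Figure D2:**
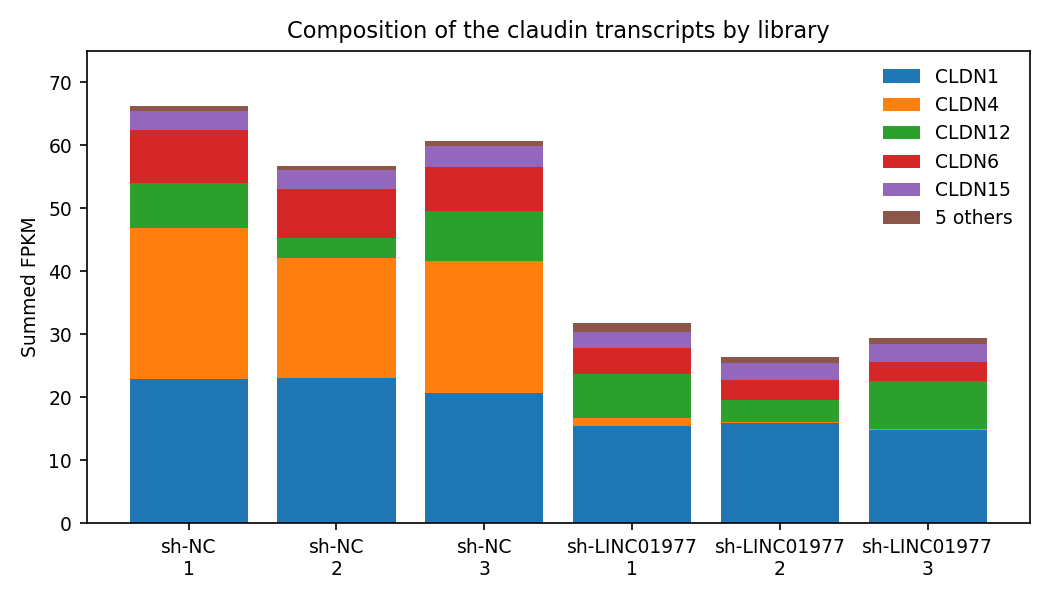
Summed FPKM of the 10 listed claudins in each of the 6 libraries, stacked by gene, with the 5 claudins of lowest level combined. The sum lies between 56.7 and 66.3 in sh-NC libraries and between 26.4 and 31.8 in sh-LINC01977 libraries, where the CLDN4 segment nearly disappears.

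The order of CLDN4 and CLDN1 depended on the length used, as did the places of CLDN6 and CLDN12. The count and FPKM of CLDN4 together imply a length of 4700 to 4759 nt in the 6 libraries, against the 4526 nt of the joined exons of its 3 listed transcripts in GENCODE 29. Those transcripts include a coding form of 4163 nt and one of 1831 nt. For CLDN1 the implied length was 3661 to 3663 nt, against 3663 nt for its joined exons and 3481 nt for its coding transcript. For CLDN12 it was 6743 to 6755 nt against joined exons of 5620 nt, a gap that leaves its FPKM less certain. Per kilobase of joined exons, CLDN4 had 27.8 ± 3.49 and CLDN1 28.0 ± 1.83 CPM in sh-NC cells (SD, n = 3 each). Per kilobase of the shortest coding transcript, CLDN4 had 68.7 ± 8.62 and CLDN1 29.5 ± 1.92 CPM (SD, n = 3 each). By that length CLDN12 (618 nt) had 84.4 ± 34.8 and CLDN6 (461 nt) 36.7 ± 3.40 CPM in sh-NC cells (SD, n = 3 each). In sh-LINC01977 cells CLDN12 then had 79.0 ± 28.7 and CLDN1 19.5 ± 0.979 CPM (SD, n = 3 each). CLDN1 thus lost the first place after knockdown by the shortest coding transcript only. Per kilobase of joined exons, CLDN1 had 18.5 ± 0.931 and CLDN12 8.69 ± 3.15 CPM in sh-LINC01977 cells (SD, n = 3 each). Per kilobase of the longest listed transcript, CLDN1 had 19.5 ± 0.979 and CLDN12 13.7 ± 4.97 CPM there (SD, n = 3 each). Whether CLDN12 and CLDN6 were present as the short transcripts of 618 and 461 nt was not tested. As the table is summed per gene, which CLDN4 transcript was present in either group was not tested.

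Besides the 10 listed claudins, 9 others were in the table, of which 2 passed the filter. CLDN11, a claudin of myelin and Sertoli cells, was counted 347, 321 and 338 times (sh-NC) and 553, 492 and 416 times (sh-LINC01977), without overlap. Its level was 6.21 ± 0.408 CPM in sh-NC and 8.74 ± 1.13 CPM in sh-LINC01977 cells (SD, n = 3 each), which gave a log2 difference of 0.49 (SE 0.13, edgeR adjusted p = 0.0541, 0.0162 to 0.138 over the alternatives). CLDN19, a claudin of kidney and eye, was counted 349, 254 and 317 times (sh-NC) and 339, 291 and 227 times (sh-LINC01977), and its groups overlapped (log2 fold change -0.14, standard error 0.18, adjusted p = 0.632 from edgeR). In FPKM, the means of CLDN11 were 0.813 (sh-NC) and 1.19 (sh-LINC01977), and those of CLDN19 were 1.24 and 1.17. These lay above the means of CLDN2 in both groups and of CLDN4 in sh-LINC01977 cells. The places and shares given above cover the 10 listed claudins only. The other 7 had counts between 0 and 74 in any library and a mean of at most 0.239 FPKM.

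To place these values, other genes of the junction were examined from lists compiled by role. The 8 lists held 66 tested genes, of which 7 rose, 4 fell and 55 did not pass an adjusted p of 0.05, with a median log2 fold change of 0.012. These 11 called genes are a share near the 15.1% of all tested genes. The largest decrease among the other membrane proteins of the tight junction strand was in MARVELD3, an occludin relative, with 13.1 ± 1.76 CPM in sh-NC and 7.82 ± 1.06 CPM in sh-LINC01977 cells (SD, n = 3 each; log2 fold change -0.74, adjusted p = 0.0202 from edgeR). OCLN and MARVELD2, the other two of that list, did not pass. Among the plaque scaffolds, 2 of 10 tested genes rose and none fell. Among them YBX3, a nucleic acid binding protein found at the tight junction, went from 75.1 ± 9.91 to 116 ± 3.03 CPM (SD, n = 3 each; log2 fold change 0.62, adjusted p = 0.0085 from edgeR). None of the 4 tested junctional adhesion and tricellular genes and none of the 13 tested polarity genes passed.
In the adherens junction list, 1 of 11 genes rose and 1 fell. CDH1, which encodes E-cadherin, was at 34.5 ± 7.04 CPM in sh-NC and 62.2 ± 13.8 CPM in sh-LINC01977 cells (SD, n = 3 each; log2 fold change 0.85, adjusted p = 0.0341 from edgeR), and the adhesion gene NECTIN4 fell with a log2 fold change of -0.33 (adjusted p = 0.0317 from edgeR). In the desmosome list, 1 of 7 rose, PKP2, a plaque protein (log2 fold change 0.54), and 1 fell, DSC2, a desmosomal cadherin (-0.32), with adjusted p of 0.0190 and 0.0382 from edgeR. Among claudin relatives and binding partners, 1 of 9 rose, PERP, a membrane protein of desmosomes, with a log2 fold change of 0.34 (adjusted p = 0.0158 from edgeR).
Of 9 tested transcription factors known to act on claudin or epithelial genes, 2 rose and 1 fell. KLF5 had a log2 fold change of 0.64, SP1 of 0.25, and HNF4A, a regulator of hepatocyte genes, of -0.55, with adjusted p-values of 0.0161, 0.04996 (just under the threshold) and 0.0071 from edgeR.
Over the alternatives, YBX3 and HNF4A passed in each, with a highest adjusted p of 0.0317 and 0.0299. The other named junction genes each lost their call on leaving out single libraries, and the highest adjusted p over all alternatives follows in parentheses. MARVELD3 was lost without sh-NC library 1 or 2 or sh-LINC01977 library 2 or 3 (0.0719), PKP2 without any 1 of the sh-NC libraries (0.0646), and KLF5 without sh-LINC01977 library 3 (0.0569). CDH1 was lost without sh-NC library 2 or 3 or sh-LINC01977 library 1 or 2 (0.0985), and PERP without each library but sh-NC library 3 (0.0545). NECTIN4 was lost without each library but sh-NC library 2 (0.0950), while DSC2 (0.134) and SP1 (0.132) were lost without any 1 of the 6. NECTIN4 and DSC2 were also lost with library totals, no filter, limma or the replicate block, CDH1 with no filter, PKP2 with the replicate block, and SP1 with RLE scaling, no filter or the replicate block.

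The KEGG Tight junction pathway, as annotated in the deposited table, held 150 genes, including 18 of the 19 claudins and 9 of the 10 listed ones. Without claudins, 108 of its genes were tested, of which 10 rose and 9 fell, and the median log2 fold change was -0.00022. This too is near the shares of all tested genes, 7.05% higher and 8.07% lower. The members with the largest changes were TUBA4A, a tubulin (0.97), NEDD4, a ubiquitin ligase (0.88), MARVELD3 (-0.74) and ITGB1, which encodes integrin β1 (0.65), with adjusted p of 0.0479, 0.0022, 0.0202 and 0.0263 from edgeR. NEDD4 passed under each alternative (highest adjusted p = 0.0201), while TUBA4A was lost without each library but sh-LINC01977 library 1 (0.136) and ITGB1 without any 1 of the sh-LINC01977 libraries (0.0778), and both with the replicate block and TUBA4A with no filter. When counts were scaled by library totals alone, 17 rose and 3 fell, so that the split between directions depended on scaling.

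**Figure D3:**
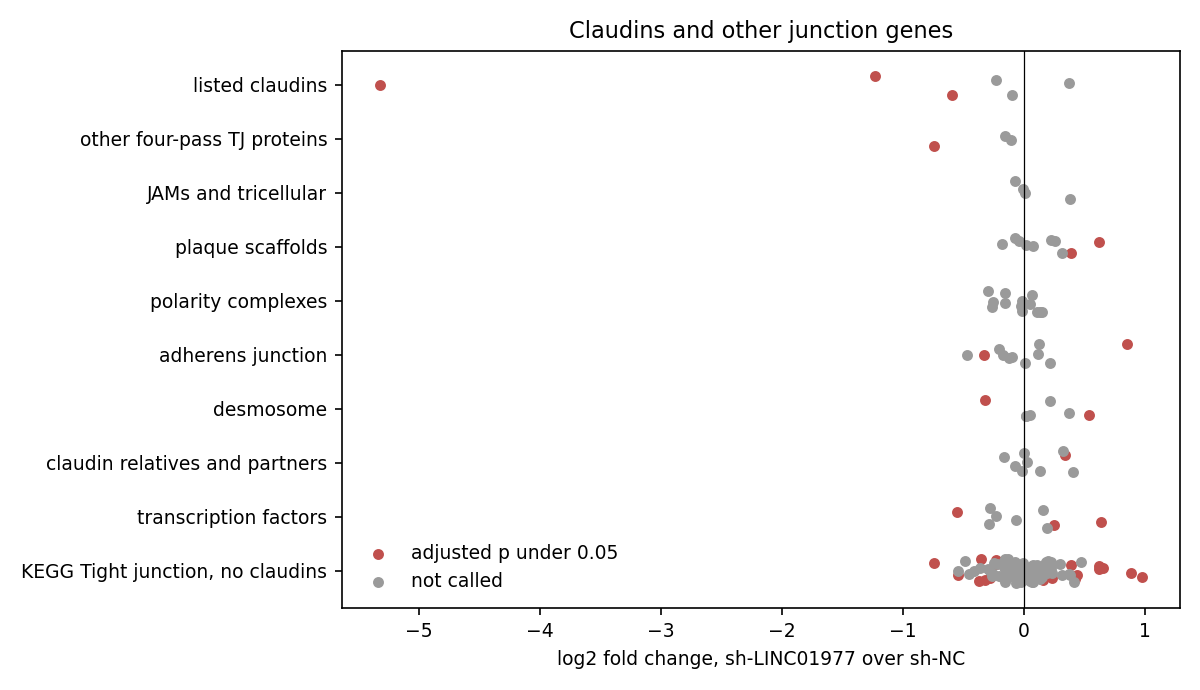
Log2 fold change, sh-LINC01977 over sh-NC, of tested genes in the claudin list, the 8 lists of junction genes and the KEGG pathway without claudins, 1 point per gene (vertical spread within a row has no meaning). Red points passed an adjusted p under 0.05. Outside the claudins, points lie between about -1 and 1, while CLDN4 lies at -5.32 and CLDN6 at -1.23.

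CLDN3 and CLDN4 lie beside each other on chromosome 7, and the genes around them were compared as a measure that was not used to list the claudins. Within 250 kb of the pair, 14 other genes were listed and 10 tested, of which none rose and 2 fell, where 8.07% of all tested genes were lower. METTL27, the nearest tested gene to CLDN4, had 1.54 ± 0.202 CPM in sh-NC and 1.55 ± 0.111 CPM in sh-LINC01977 cells (SD, n = 3 each), and a log2 difference of 0.012 (SE 0.20, edgeR adjusted p = 0.977). On the far side of CLDN3, ABHD11 had a log2 fold change of 0.35 and an adjusted p of 0.167 from edgeR. MLXIPL, which encodes the glucose-responsive factor ChREBP, fell from 82.7 ± 8.66 to 47.6 ± 9.10 CPM (SD, n = 3 each; log2 fold change -0.80, adjusted p = 0.0166 from edgeR), and BAZ1B, which encodes a chromatin remodeller subunit, fell with a log2 fold change of -0.19 (adjusted p = 0.0301 from edgeR). MLXIPL was lost without sh-NC library 1 or 2 or sh-LINC01977 library 1 and BAZ1B without any 1 of the 6 or with library totals, no filter, limma or the replicate block, with a highest adjusted p over all alternatives of 0.0558 and 0.128. TBL2, BCL7B, VPS37D, DNAJC30, BUD23 and STX1A did not pass, with log2 fold changes between -0.18 and 0.21. Around the neighbouring genes CLDN6 and CLDN9 on chromosome 16, 19 of 43 other listed genes were tested, none rose and 2 fell. These were AC004233.3 (log2 fold change -0.85, adjusted p = 0.0394 from edgeR) and IL32 (-0.28, 0.0245), named after their values were seen. Both were lost with the replicate block, AC004233.3 also with no filter and without any 1 of the 6 libraries, and IL32 without each library but sh-LINC01977 library 2, with a highest adjusted p over all alternatives of 0.107 and 0.0820. The largest change among the 19 went the other way, in KREMEN2 (log2 fold change 1.09, edgeR adjusted p = 0.0541, 0.0029 to 0.138 over the alternatives). HCFC1R1 had 0.68 (edgeR adjusted p = 0.0899). These 2 were higher without overlap, did not pass, and were also named after their values were seen.

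**Figure D4:**
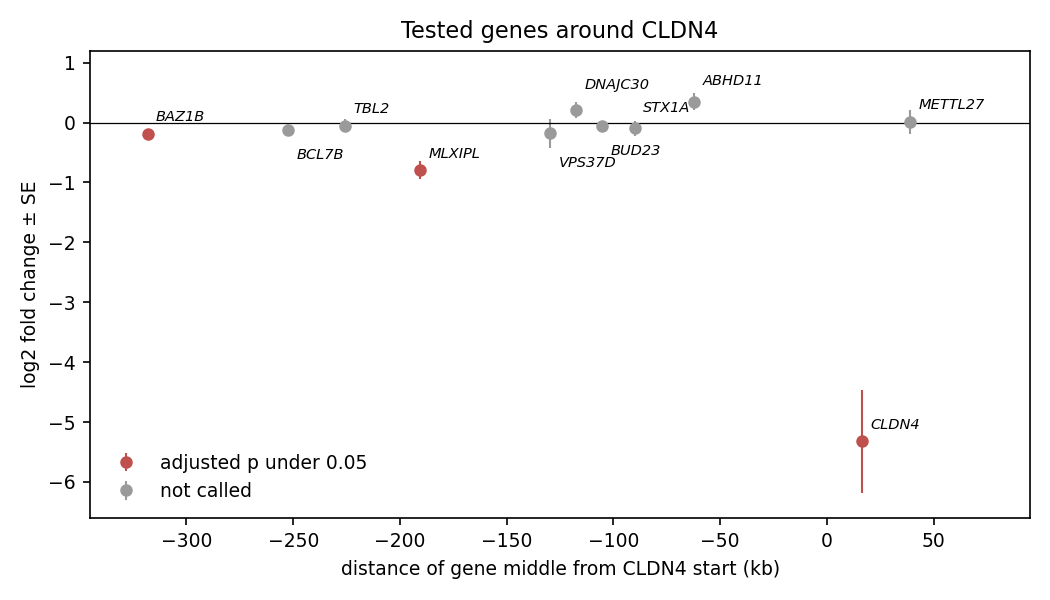
Log2 fold change with its standard error for CLDN4 and the 10 tested genes around CLDN3 and CLDN4, against the distance of the middle of each gene from the start of the CLDN4 interval in kb. CLDN4 lies at -5.32, MLXIPL at -0.80, and the other neighbours between -0.19 and 0.35.

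The 5 genes whose log2 CPM followed CLDN4 most closely over the 6 libraries were PLXNA1, ASGR2, C1orf174, PATZ1 and VAV2, with Pearson's r between 0.995 and 0.999. Each is a description over 6 points that share their libraries and the split into groups. Their own log2 fold changes, -0.29 for PLXNA1, -0.34 for ASGR2, -0.42 for C1orf174, -0.28 for PATZ1 and -0.33 for VAV2, were far smaller than that of CLDN4.

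Short stretches of sequence from CLDN1, CLDN4 and CLDN6 are shown to give the positions of letters shared with the hairpin and with common promoter motifs. The guide strand complementary to the hairpin target that the study lists reads as follows, with bases 2 to 8, the seed, in capitals. It was not stated whether this hairpin is the one numbered 3 in the labels, or which strand was active.
hairpin guide: aAATCCAGggaagacgaatgc
A transcript matching this seed holds the letters CTGGATT, which occur in 17.3% of the 83129 protein-coding transcripts of GENCODE 29. Of the 35 coding transcripts of the 10 claudins, 3 held a match, given here in capitals within 30 bases.
CLDN1 transcript: tgtctggagacCTGGATTtgagtcttggtg
CLDN4 long transcripts: ctctggtcaaaCTGGATTcctggctgttcc
The CLDN1 match lies in the 3′ UTR of its coding transcript of 3481 nt (chr3:190306647-190306653, minus strand). The CLDN4 match lies in the 5′ UTR of a pair of transcripts of 4108 and 4163 nt (chr7:73829719-73829725, plus strand) and not in the transcript of 1831 nt, and no coding transcript of CLDN6 held one. A match is a description and shows no action of the hairpin.
Promoter windows from 250 bases before to 50 after the start were taken from RefSeq (GRCh38.p14), which gave a window for 9 of the 10 claudins. On both strands, the GC box GGGCGG was found in 45.0% of all 35116 windows, in CLDN4 (1 match), CLDN1 (2) and CLDN6 (2). The AP-1 motif TGANTCA was found in 7.71% of windows and had 2 matches in CLDN4 and none in CLDN1 or CLDN6. The matches are given in capitals within 30 bases on the strand of the gene.
CLDN4 AP-1, distal: ctgggctgTGATTCAgtgtctgtctcccgg
CLDN4 AP-1, proximal: agactggatagTGACTCAgggacccggggc
CLDN4 GC box: ctccctctgcccCCGCCCctctgccagagc
CLDN1 GC box, distal: cctctcggtgagCCGCCCtgaaaccgccag
CLDN1 GC box, proximal: cggggctgaggcGGGCGGagctgctttaaa
CLDN6 GC box, distal: gcccctcctccgGGGCGGtggtccagtgac
CLDN6 GC box, proximal: agacccccgcctCCGCCCctgtcccgacac
The AP-1 matches begin 242 and 161 bases before the CLDN4 start (stretches at chr7:73830746-73830775 and chr7:73830824-73830853, plus strand), and its GC box 47 bases before (chr7:73830937-73830966). This start lies within the CLDN4 interval, past the seed match at chr7:73829719-73829725. It is therefore not the start of the transcripts of 4108 and 4163 nt, which hold that match. The GC boxes of CLDN1 begin 88 and 40 bases before the start (chr3:190322517-190322546 and chr3:190322469-190322498, minus strand), and those of CLDN6 61 and 16 bases before (chr16:3018227-3018256 and chr16:3018182-3018211, minus strand). Both CLDN6 stretches lie within the CLDN6 interval, which reaches 3020071. The start used for CLDN6 is therefore not the outermost start of that interval. The CAGGTG letters of the E-box bound by SNAI1 occur in 20.6% of windows, and in CLDN6 but not in CLDN1 or CLDN4. The RBPJ motif TGGGAA (24.03% of windows), TEAD motif GGAATG (14.03%), TATA box TATAAA (11.5%), CCAAT box (34.6%) and GRHL motif AACCNGTT (1.73%) were in none of the 3 windows. The AP-1 and GC box matches of CLDN4 do not overlap each other.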

How the data were processed

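RNA was isolated with TRIzol, per the labels, and read on a HiSeq platform, per the study's methods. The submitters' processing notes name bcl2fastq 2.0, HISAT2, StringTie, DESeq2 and limma, and the build hg38, without roles. The authors deposited whole-number counts per gene without normalization, and FPKM values scaled to length and library total. All of the columns of both were used. The counts were fitted with edgeR 4.0.16 in R 4.3.3 (quasi-likelihood test with TMM scaling and adjustment by Benjamini-Hochberg) over the 13452 of 29153 genes that averaged 0.5 FPKM or more, and the fit was tested on simulated data. CPM use the same scaling, and the standard error is the log2 fold change divided by the root of the F statistic. The length implied by count and FPKM lay within 2% of the joined exons for 85.3% of 11964 genes with 100 or more counts in every library; the annotation and strand setting of the counting are not given in the sources used here. The groups came from the sample titles. Sequences were read from RefSeq, GENCODE 29 and the study's list of hairpins. Alternatives were other scalings, filters and pseudocounts, DESeq2 1.42.0, limma 3.58.1, a replicate block and leaving out each library. The members and the lists were chosen with earlier results of these data known. Named genes were all members and other tested claudins, up to 4 called genes per list with the largest fold change and averaging 1 FPKM or more, tested neighbours of CLDN3 and CLDN4, the 5 genes (at the same minimum) most correlated with CLDN4, and LINC01977; TNFRSF12A was added for its overlap with CLDN6. The values of 1 called gene of the plaque scaffold list are not reported here.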

Additional observations from a re-analysis of the deposited data

How the results depend on the processing

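As a description that lends no support, since the list was chosen on this comparison, 3 of the listed claudins were past the threshold with lower and 0 with higher levels under each alternative run. The log2 fold change of CLDN4 ranged from -7.10 to -3.92, that of CLDN6 from -1.35 to -0.98 and that of CLDN1 from -0.65 to -0.51. Of the 6 tested claudins only CLDN12 changed sign, with 0.18 without the second sh-LINC01977 library, 0.054 without the first and 0.12 without the third sh-NC library, in a range from -0.40 to 0.18 with 1 library left out.

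Counts of other junction genes were less stable, and apart from fewer libraries or genes tested the cause was not tested. In the 8 junction lists, 7 genes rose and 4 fell. With library totals 12 rose and 2 fell, 2 fell with limma at each of the 3 pseudocounts and with the replicate block, and with 1 library left out 3 to 4 rose and 1 to 3 fell. In the KEGG pathway without claudins, 10 rose and 9 fell. With library totals 17 rose and 3 fell, with limma at each pseudocount 3 fell and at 0.01 and 1 16 rose, with the replicate block 5 rose, and with 1 library left out 4 to 8 rose and 2 to 5 fell. Around CLDN3 and CLDN4, 2 genes fell, but 1 with library totals, no filter, limma at each pseudocount or the replicate block, and 0 to 1 with 1 library left out. Around CLDN6 and CLDN9, 2 fell, but 1 without a filter, 0 with the replicate block and 0 to 1 with 1 library left out, while 1 rose with library totals and 2 with DESeq2. From counts over the longest transcript, the share of CLDN1 was 32.8% in sh-NC and 44.8% in sh-LINC01977 cells. With 1 library left out, the share of CLDN4 was 0.576% to 2.45% in sh-LINC01977 cells, the lower value without the first library.

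Same-numbered libraries of the groups did not deviate together over the tested genes (r between -0.034 and 0.061 for 3 pairs). The labels do not say how the replicates were numbered, so whether same-numbered libraries were prepared together is not known. With the replicate block, 1390 genes were called in place of 2033 (1176 to 1398 with 1 library left out), and the count of listed claudins was the same. CLDN2 was not among the genes tested with the filter at a mean of 1 FPKM.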
